A study of Mus musculus with 12 samples.

Results

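The 10 genes described here encode the receptors with which the kidney proximal tubule retrieves filtered protein and the structural and enzymatic proteins of its brush border: Lrp2, Cubn, Amn, Dab2, Clcn5, Mme, Mep1a, Ggt1, Anpep and Vil1. They were taken by name, and the probes were those whose symbol in the platform annotation was one of these names. Of the 10 genes, 8 had a named probe, and all 8 were measured, which is 8 of the 11244 genes measured in all. No probe of Clcn5 or of Ggt1 was named in the annotation, and these 2 genes are not analysed here. The 8 genes had 16 probes, of which 12 were detected (detection p under 0.01) in at least 1 array.

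RNA from whole hearts and kidneys was hybridised to Illumina bead arrays, on which the brightness of a probe is summarised as a signal per array. The 4 groups, each of 3 arrays, were kidneys of PAI-1 knockout mice (KO/KID), kidneys of wildtype mice (WT/KID), hearts of PAI-1 knockout mice (KO/HT) and hearts of wildtype mice (WT/HT). All mice were C57BL/6 and 12 months old, no treatment is named, and the knockout, a deletion of the coding region with part of the promoter, affects all cells of the body rather than a chosen cell type. PAI-1, plasminogen activator inhibitor-1, is the main inhibitor of the enzymes that activate plasminogen, and the study set the organs side by side to ask why fibrosis differs between them when PAI-1 is lost. The targeted gene had 0 probes named in the annotation, so the knockout could not be checked on these arrays.

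The early proximal tubule takes up nearly all protein that passes the glomerular filter. Megalin (Lrp2), a giant receptor of the LDL receptor family, and cubilin (Cubn), which has no membrane anchor and is held and brought to the cell surface by amnionless (Amn), bind a wide range of ligands between the microvilli. The adaptor Dab2 couples the cytoplasmic tail of megalin to clathrin, and the exchanger encoded by Clcn5 serves the acidification of the endosomes that follow. The microvilli themselves are built on actin bundled by villin (Vil1) and carry peptidases that break down filtered peptides, among them neprilysin (Mme), meprin (Mep1a) and aminopeptidase N (Anpep), beside the glutathione-cleaving enzyme encoded by Ggt1.

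The promoters of the 3 receptor genes and of Mep1a are shown as background, and no result below rests on them. Like the other measured genes, these 4 were higher in kidneys than in hearts. Lrp2, Amn and Mep1a had the 3 widest differences of the 8 genes measured and Cubn a narrower one. Each run holds the 250 bases before the annotated start of transcription, 5′ to 3′ on the strand of the gene, from RefSeq (build GRCm38.p6). Capitals mark CAAAGT, a half-site of the kidney and liver transcription factor HNF4, and GTTAAT, a half-site of HNF1, was searched in the same way on both strands.
Lrp2, chr2:69586030-69586279, minus strand: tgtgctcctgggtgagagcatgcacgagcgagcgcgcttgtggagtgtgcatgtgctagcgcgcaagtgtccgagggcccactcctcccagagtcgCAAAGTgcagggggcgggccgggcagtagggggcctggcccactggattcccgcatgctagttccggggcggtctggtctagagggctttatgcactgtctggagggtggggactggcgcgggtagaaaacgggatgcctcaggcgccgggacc
Cubn, chr2:13491877-13492126, minus strand: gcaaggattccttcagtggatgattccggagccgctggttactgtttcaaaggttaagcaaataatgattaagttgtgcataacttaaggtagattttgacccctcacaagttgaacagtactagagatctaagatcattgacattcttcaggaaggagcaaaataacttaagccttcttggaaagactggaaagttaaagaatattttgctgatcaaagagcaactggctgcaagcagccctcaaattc
Amn, chr12:111270846-111271095, plus strand: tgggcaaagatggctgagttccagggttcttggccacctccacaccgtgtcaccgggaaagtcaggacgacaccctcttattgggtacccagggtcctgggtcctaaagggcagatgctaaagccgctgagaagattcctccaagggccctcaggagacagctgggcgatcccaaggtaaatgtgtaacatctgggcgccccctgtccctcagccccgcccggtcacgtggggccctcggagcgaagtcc
Mep1a, chr17:43502774-43503023, minus strand: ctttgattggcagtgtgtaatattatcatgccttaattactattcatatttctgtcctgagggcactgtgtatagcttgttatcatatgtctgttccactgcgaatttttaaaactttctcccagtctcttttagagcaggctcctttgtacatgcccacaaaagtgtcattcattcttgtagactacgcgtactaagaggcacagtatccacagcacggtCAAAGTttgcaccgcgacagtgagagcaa

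The Lrp2 window held 1 CAAAGT, which began 154 bases before the start, and the Mep1a window held 1, which began 29 bases before it. Neither motif was found in the Cubn or the Amn window. All 10 genes had at least 1 annotated start and together 17 windows, of which 6, in 6 genes, held CAAAGT and 1, of Dab2, held GTTAAT. Over all 32851 windows of the same length in the table, 12.6% held CAAAGT and 6.43% held GTTAAT. In the 17 windows no match of one motif overlapped a match of the other. These matches are letters in a window and were not tested as binding sites.

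The arrays carried the markers of their labelled organ. All 8 proximal tubule markers were detected in all 6 kidneys and 5 of them in no heart (Slc5a2, Slc22a6, Slc13a3, Slc22a8 and Slc6a19), while Slc34a1, Slc27a2 and Miox were detected in some hearts. The summed log2 level of the 8 markers was 16.45 to 16.47 in KO/KID, 16.40 to 16.44 in WT/KID, 9.52 to 9.70 in KO/HT and 9.54 to 9.77 in WT/HT. The 7 measured cardiomyocyte markers were detected in all 6 hearts and in no kidney. Replicate arrays of 1 group correlated at 0.986 or more, and hearts with kidneys at 0.724 to 0.748. Hearts and kidneys share replicate numbers in the labels, but their sex-linked transcripts differed: Xist, transcribed from the inactive X chromosome, was detected in 5 hearts and in 0 kidneys, while the Y-linked Eif2s3y was detected in all 6 kidneys and in 1 heart, KO/HT replicate 1. Kdm5d, also Y-linked, was detected in 3 of 3 KO/KID, 1 of 3 WT/KID and, among the hearts, in KO/HT replicate 1 alone. The Y-linked Uty lay near the detection limit, with log2 levels of 6.57 to 6.90, and did not follow the others: it was detected in 1 KO/KID and 2 WT/KID arrays, in KO/HT replicates 1 and 3 and in WT/HT replicate 1. By Xist and Eif2s3y, of the 6 heart and kidney pairs with the same number, 5 carried different sex-linked transcripts, so the numbers were not read as shared mice. In wildtype mice organ and sex cannot be told apart. In knockout mice the kidneys were also set against KO/HT replicate 1 alone, and the heart comparison was repeated without that array, and both values are given below.

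All 8 measured genes were expressed at significantly higher levels in kidneys than in hearts, in both genotypes. With limma and Benjamini-Hochberg adjustment over all 19780 detected probes, 8 of 8 were called higher (adjusted p under 0.05) in KO/KID against KO/HT, where 30.2% of all probes were, and 8 of 8 in WT/KID against WT/HT, where 31.4% were. The median difference of the 8 genes was 3.12 on the log2 scale in knockout and 3.10 in wildtype mice, beside −0.03 and −0.02 over all probes. For all 8 genes the kidney arrays lay above the heart arrays with no overlap, as they did for 32.3% of all probes in knockout and 34.4% in wildtype mice. Of the 8 genes, 4 (Cubn, Amn, Mep1a and Vil1) were detected in no heart and passed the detection filter through the kidneys alone. Their higher kidney signal was thus in part fixed by that filter, and they enter these counts and medians. Lrp2, Dab2, Mme and Anpep were detected in hearts too. The organs are mixtures of cell types, so that fewer cells of a type and less RNA per cell cannot be told apart in any of these values.

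**Figure D1:**
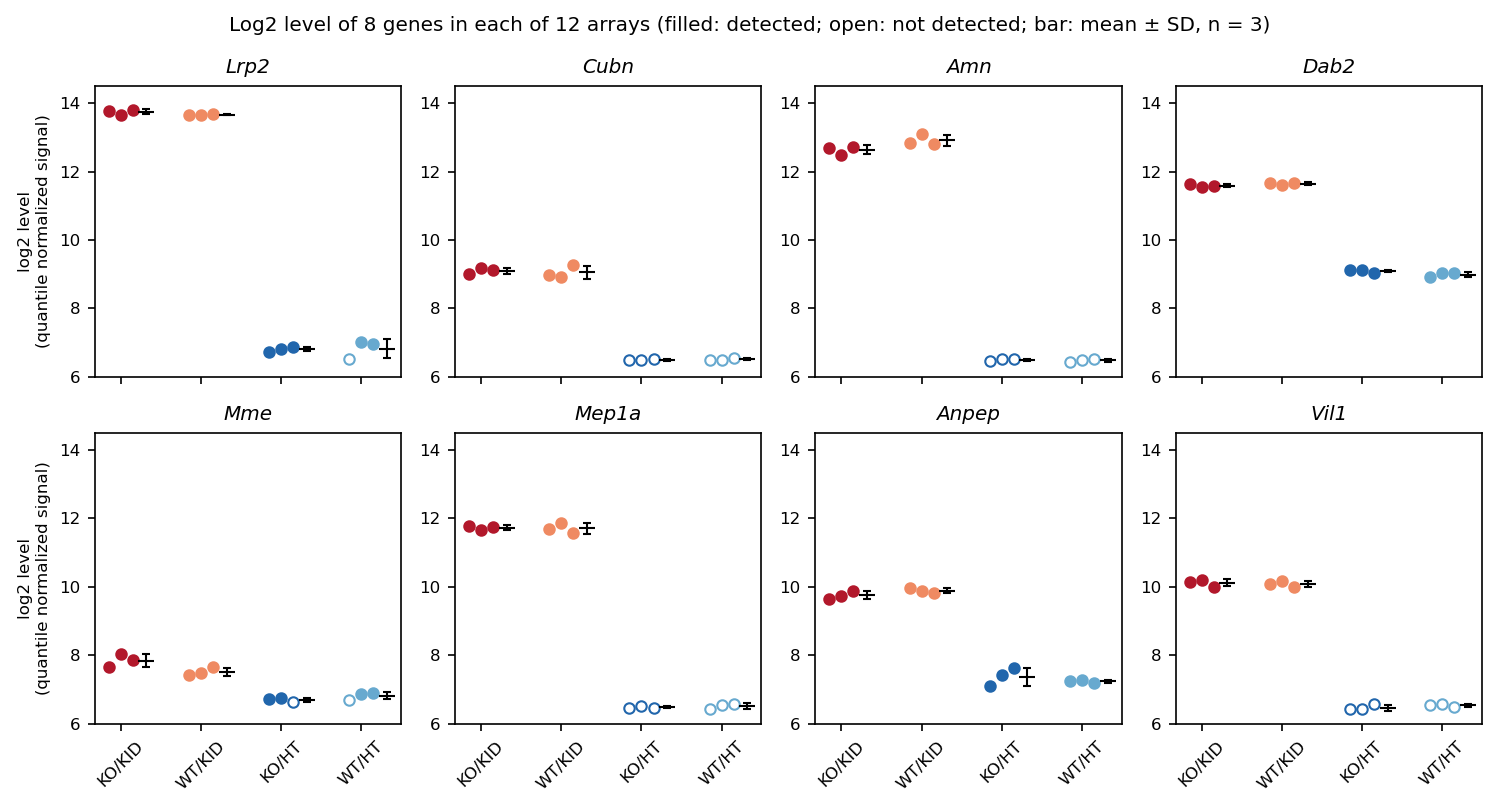
Log2 level (quantile normalized signal) of the 8 measured genes in each of the 12 arrays, 1 panel a gene, with KO/KID, WT/KID, KO/HT and WT/HT side by side. Filled points were detected, open points were not, and bars are the mean ± SD (n = 3); every kidney point lies above every heart point of its panel, while knockout and wildtype points of the same organ lie close together.

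Lrp2, megalin, showed the widest difference of the 8 genes. Its log2 levels were 13.78, 13.66 and 13.80 in KO/KID and 13.65, 13.65 and 13.69 in WT/KID. In hearts they were 6.74, 6.83 and 6.88 in KO/HT and 6.51, 7.01 and 6.95 in WT/HT. The 6 kidneys thus lay within a narrow band far above the hearts, where the probe was still detected in 3 of 3 knockout and 2 of 3 wildtype arrays. These heart levels lay close to the lowest detected signal of the hearts, 6.67 to 6.73, so the folds below are not exact. The proximal tubule markers Slc34a1, Slc27a2 and Miox were also faintly detected in some hearts. Whether heart cells express Lrp2 was not tested. The kidney level was 122-fold the heart level in knockout mice (difference in log2 6.93, SE 0.11, adjusted p = 2.1e-14 by limma) and 114-fold in wildtype mice (6.84, SE 0.11, adjusted p = 2.4e-14). Ranked among the differences of all 11244 genes, that of Lrp2 was number 14 from the top in knockout and number 16 in wildtype mice. A second detected probe of Lrp2 differed in the same direction but much less, by 0.56 in both genotypes (at least 1.33-fold, adjusted p = 2.69e-05, in knockout and at least 1.32-fold, adjusted p = 2.34e-05, in wildtype mice), with 6.99 to 7.27 in KO/KID, 7.05 to 7.17 in WT/KID, 6.49 to 6.57 in KO/HT and 6.50 to 6.63 in WT/HT. It was detected in no heart, and the remaining probe was detected in no array, so the size of the Lrp2 difference rests on 1 of its 3 probes.

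The cubilin pair passed detection in every kidney but in none of the hearts. Cubn had log2 levels of 9.0, 9.18 and 9.11 in KO/KID and 8.98, 8.92 and 9.26 in WT/KID, against 6.48, 6.49 and 6.53 in KO/HT and 6.49, 6.50 and 6.55 in WT/HT. The kidneys of both genotypes overlapped, and the hearts stayed at the level of undetected probes. The fitted difference was 2.59 in knockout (SE 0.08, adjusted p = 1.77e-11) and 2.54 in wildtype mice (SE 0.08, adjusted p = 2.14e-11). Because a heart signal that is not detected is only an upper limit, the fold was taken against the lowest signal among detected probes of each heart, or the gene's own where higher. In these quantile normalized signals Cubn was at least 5.30-fold higher in KO/KID than in KO/HT and at least 5.07-fold higher in WT/KID than in WT/HT. Under other processing its fitted difference ran from 1.78 to 4.56 in knockout and from 1.74 to 4.49 in wildtype mice. These limits, and the folds of all other genes given as at least, therefore hold for this processing only.

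Amn, the membrane partner of cubilin, had log2 levels of 12.69, 12.48 and 12.73 in KO/KID and 12.84, 13.09 and 12.80 in WT/KID. Its heart levels were 6.47, 6.52 and 6.52 in KO/HT and 6.44, 6.49 and 6.53 in WT/HT. Every knockout kidney lay below every wildtype kidney, and no heart was above detection. Amn was at least 61.4-fold higher in KO/KID than in KO/HT (fitted difference 6.13, SE 0.08, adjusted p = 7.46e-15) and at least 73.2-fold higher in WT/KID than in WT/HT (6.42, SE 0.08, adjusted p = 5.22e-15).

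Dab2, the clathrin adaptor of megalin, was the receptor-side gene with clear expression in hearts too, and was detected in all 12 arrays. It is also known as an adaptor in macrophages and mesenchymal cells. Its log2 levels were 11.64, 11.55 and 11.58 in KO/KID, 11.67, 11.60 and 11.67 in WT/KID, 9.12, 9.12 and 9.05 in KO/HT, and 8.91, 9.03 and 9.03 in WT/HT. The kidney level was 5.64-fold the heart level in knockout mice (2.50, SE 0.05, adjusted p = 4.22e-13) and 6.29-fold in wildtype mice (2.65, SE 0.05, adjusted p = 2.32e-13). Both other detected probes of Dab2 were also higher in kidneys, one by 2.39 in knockout and 2.44 in wildtype mice and the other by 1.55 and 1.48. Macrophage markers, 6 of 7 measured, had a summed log2 level of 10.28 to 10.41 in KO/KID and 10.12 to 10.35 in WT/KID, against 11.27 to 11.75 in KO/HT and 11.26 to 11.94 in WT/HT, and fibroblast markers, 6 of 6 measured, 10.88 to 11.07 in KO/KID and 10.64 to 10.93 in WT/KID, against 12.98 to 13.31 in KO/HT and 12.90 to 12.95 in WT/HT. Of the 6 macrophage markers, 5 were called lower in KO/KID than in KO/HT and 6 lower in WT/KID than in WT/HT, and of the 6 fibroblast markers 5 and 4 were, with 0 of either list called higher. The fibroblast marker Pdgfra differed by 0.10 in knockout and −0.02 in wildtype mice, neither called. The part of these cells in the heart signal of Dab2 was not tested.

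The 3 measured surface peptidases differed widely in their organ difference. Mep1a, the alpha subunit of the metalloprotease meprin, had log2 levels of 11.78, 11.66 and 11.76 in KO/KID and 11.69, 11.87 and 11.57 in WT/KID. Its heart levels were 6.46, 6.52 and 6.47 in KO/HT and 6.42, 6.56 and 6.58 in WT/HT. It passed detection in the 6 kidneys alone, and was at least 33.0-fold higher in KO/KID than in KO/HT (fitted difference 5.25, SE 0.07, adjusted p = 1.29e-14) and at least 32.0-fold higher in WT/KID than in WT/HT (5.19, SE 0.07, adjusted p = 1.41e-14).

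Anpep, aminopeptidase N, trims single residues from peptides and is also carried by myeloid and stromal cells. It was detected in all 12 arrays, with log2 levels of 9.66, 9.75 and 9.89 in KO/KID and 9.97, 9.87 and 9.83 in WT/KID. Its heart levels were 7.10, 7.42 and 7.62 in KO/HT and 7.25, 7.29 and 7.20 in WT/HT. The knockout hearts (SD 0.26) were more spread than the wildtype hearts (SD 0.05). The kidney level was 5.23-fold the heart level in knockout mice (2.39, SE 0.11, adjusted p = 7.39e-10) and 6.26-fold in wildtype mice (2.65, SE 0.11, adjusted p = 2.52e-10).

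Mme, neprilysin, an endopeptidase that cleaves natriuretic and other small peptides, had the narrowest organ difference of the 8 genes. Its log2 levels were 7.65, 8.03 and 7.87 in KO/KID and 7.44, 7.48 and 7.65 in WT/KID, and those in hearts were 6.72, 6.76 and 6.64 in KO/HT and 6.70, 6.88 and 6.89 in WT/HT. It was detected in all kidneys and in 2 of 3 hearts of each genotype. The heart levels lay close to the lowest detected signal of the hearts, 6.67 to 6.73, so the folds of Mme are not exact. Over the other processing settings its fitted difference ran from 0.70 to 2.33 in knockout and from 0.42 to 1.47 in wildtype mice. The kidney level was 2.21-fold the heart level in knockout mice (1.15, SE 0.09, adjusted p = 2.54e-07) and 1.62-fold in wildtype mice (0.70, SE 0.09, adjusted p = 2.46e-05). A second detected probe, with no heart detected, gave smaller differences in the same direction, 0.40 in knockout (at least 1.12-fold, adjusted p = 6.18e-06) and 0.27 in wildtype mice (at least 1.04-fold, adjusted p = 0.000223), and the other 2 probes of Mme were detected in no array.

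Vil1, villin, which bundles the actin of the microvillus core, had log2 levels of 10.15, 10.21 and 10.01 in KO/KID and 10.09, 10.18 and 10.01 in WT/KID. Its heart levels were 6.42, 6.43 and 6.57 in KO/HT and 6.54, 6.59 and 6.50 in WT/HT, none of them detected. The kidneys of both genotypes overlapped almost completely. Vil1 was at least 10.8-fold higher in KO/KID than in KO/HT (fitted difference 3.65, SE 0.07, adjusted p = 1.38e-13) and at least 10.4-fold higher in WT/KID than in WT/HT (3.54, SE 0.07, adjusted p = 1.87e-13).

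**Figure D2:**
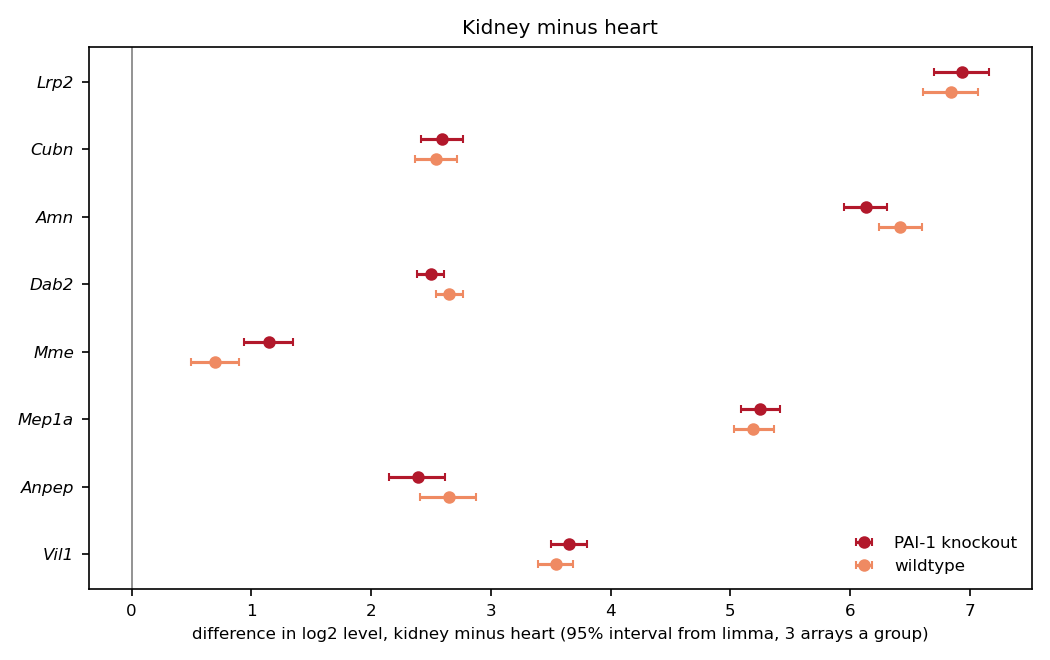
Difference in log2 level between kidneys and hearts (kidney minus heart) of the 8 genes in PAI-1 knockout and in wildtype mice, with 95% intervals from limma, 3 arrays a group. All 16 intervals lie above 0, the widest differences are those of Lrp2 (6.93 and 6.84), Amn (6.13 and 6.42) and Mep1a (5.25 and 5.19), and the narrowest is that of Mme (1.15 and 0.70).

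Set against KO/HT replicate 1 alone, the knockout heart that like the kidneys carried Eif2s3y, the 8 genes were again all called higher in KO/KID. The differences then were 7.01 for Lrp2, 2.61 for Cubn, 6.16 for Amn, 2.47 for Dab2, 1.13 for Mme, 5.27 for Mep1a, 2.66 for Anpep and 3.71 for Vil1, with the largest adjusted p at 2.94e-05, for Mme. The lone heart is assumed in this fit to vary like the other groups. With the sex-linked transcripts matched in this way the differences stayed close to those over all 3 hearts, and Anpep moved most, with 2.66 against that heart and 2.39 against all 3.

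The 8 genes differed among themselves in how far their centred levels lay from those of Lrp2. The 5 genes of the whole array whose pattern over the 12 arrays lay closest to that of Lrp2, by the root mean square difference of centred log2 levels among 11243 genes, were Klk1 (0.11), Slc22a18 (0.12), Glyat (0.14), Cdh16 (0.14) and Wfdc15b (0.14). Of the other 7 measured members, Amn lay at 0.35 and Mep1a at 0.84, and the remaining 5 at 1.65 to 2.99. The levels were centred but not scaled, so over arrays of only 2 organs this distance mainly reflects the size of the organ difference at the probe used. It does not show whether a gene follows Lrp2.

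Loss of PAI-1 was accompanied by no called change of any of the 8 genes in kidneys. In KO/KID against WT/KID, limma called 0 of 8 genes, where 0.546% of all probes were called in either direction, and 2 of 8 had an unadjusted p under 0.05, where 10.1% of all probes did. The differences ran between −0.28 and 0.33, with a median of 0.03, beside 0.00 over all probes. For Lrp2 the difference was 0.09 (95% interval −0.14 to 0.32, adjusted p = 0.9) and for Cubn 0.04 (−0.13 to 0.22, adjusted p = 0.962). These intervals bound a change of either receptor within the range given and do not show that their levels were equal.

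Amn and Mme were the 2 genes whose kidney arrays did not overlap between genotypes. Amn averaged 12.63 ± 0.13 in KO/KID and 12.91 ± 0.16 in WT/KID (SD, n = 3 each), a difference of −0.28 (SE 0.08, 95% interval −0.46 to −0.10) that limma did not call (adjusted p = 0.215). Among all probes, 8.27% were lower in KO/KID with no overlap. Mme averaged 7.85 ± 0.19 in KO/KID and 7.52 ± 0.11 in WT/KID, a difference of 0.33 (SE 0.09, 95% interval 0.13 to 0.53) that was not called either (adjusted p = 0.185), and 8.95% of all probes were higher in KO/KID with no overlap. The lowest knockout and the highest wildtype kidney of Mme both read 7.65 and differ only past the second decimal. The second probe of Mme differed by 0.08 (adjusted p = 0.652).

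The other 4 genes differed little between the genotypes in kidneys. The difference was −0.05 for Dab2 (95% interval −0.17 to 0.06, adjusted p = 0.852), 0.02 for Mep1a (−0.14 to 0.19, adjusted p = 0.984), −0.13 for Anpep (−0.36 to 0.11, adjusted p = 0.8) and 0.03 for Vil1 (−0.12 to 0.18, adjusted p = 0.966). The arrays of both genotypes overlapped for all 4 genes. When the arrays were only shifted to a common median in place of quantile normalization, 3 of the 8 genes were called higher in KO/KID, namely Cubn (0.27, adjusted p = 0.0383), Mme (0.56, adjusted p = 0.00766) and Vil1 (0.25, adjusted p = 0.0447). Under that scaling the median of all probes moved to 0.12 and 2455 probes were called higher against 89 lower, where quantile normalized values gave 48 higher and 60 lower.

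**Figure D3:**
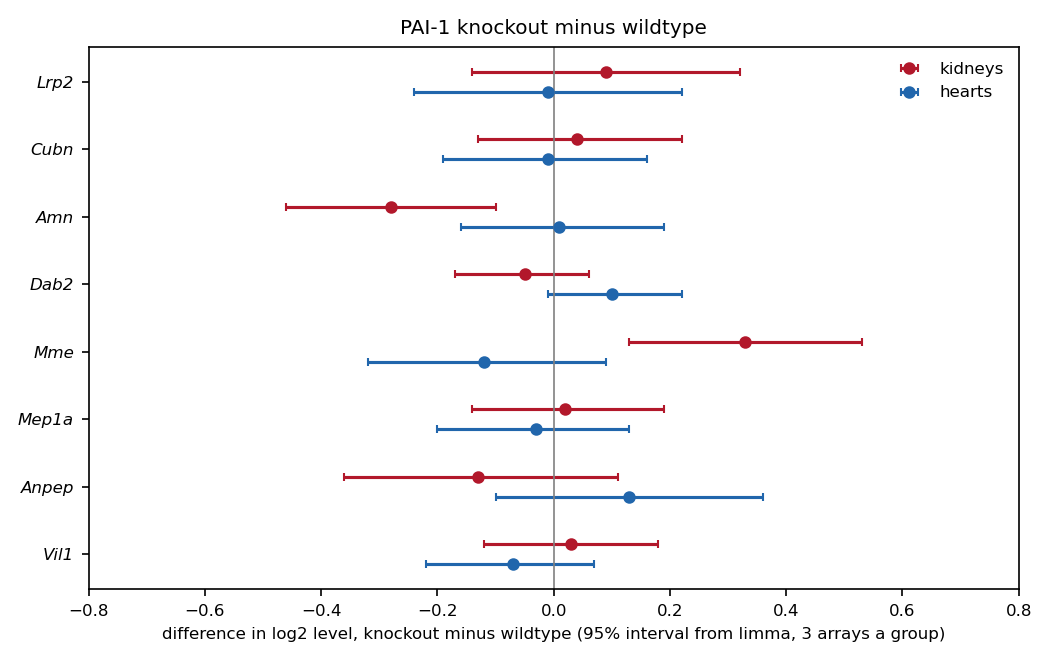
Difference in log2 level between PAI-1 knockout and wildtype mice (knockout minus wildtype) of the 8 genes in kidneys and in hearts, with 95% intervals from limma, 3 arrays a group. The intervals of Amn (−0.28) and Mme (0.33) in kidneys lie to one side of 0 before any adjustment over probes, and all others include 0; Cubn, Amn, Mep1a and Vil1 were detected in no heart.

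In hearts only 4 of the 8 genes, Lrp2, Dab2, Mme and Anpep, were detected in any array. In KO/HT against WT/HT, limma called 0 of these 4 genes, where 0.0657% of all probes were called in either direction, and 0 of 4 had an unadjusted p under 0.05, where 8.03% of all probes did. Dab2, the adaptor, was the gene nearest to it: it averaged 9.10 ± 0.04 in KO/HT and 8.99 ± 0.07 in WT/HT (SD, n = 3 each), a difference of 0.10 (95% interval −0.01 to 0.22, adjusted p = 0.648), with all knockout hearts above the wildtype hearts, as for 5.37% of all probes. Its other 2 detected probes differed by 0.17 and −0.04, with arrays that overlapped.

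Anpep differed by 0.13 in hearts (95% interval −0.10 to 0.36, adjusted p = 0.842) and Mme by −0.12 (−0.32 to 0.09, adjusted p = 0.834). Lrp2 differed by −0.01 (−0.24 to 0.22, adjusted p = 0.998). The heart signals of Mme and Lrp2 lay close to the lowest detected signal of the hearts. Cubn, Amn, Mep1a and Vil1 were kept through the kidneys alone and were detected in no heart of either genotype, so that hearts held no signal of them to compare, and no fold is given. Without KO/HT replicate 1, when every heart left carried Xist, the difference was 0.09 for Dab2 (adjusted p = 0.668), 0.27 for Anpep (adjusted p = 0.295), −0.12 for Mme (adjusted p = 0.776) and 0.03 for Lrp2 (adjusted p = 0.975), and still 0 of the 4 genes were called. Without KO/HT replicate 3, the highest of the hearts for Anpep, that gene differed by 0.01 (adjusted p = 0.994).

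Whether the genotype difference of a gene was unlike in the 2 organs was tested by the interaction of genotype and organ. limma called 0 of 8 genes, where 0.101% of all probes were called, and 2 of 8 had an unadjusted p under 0.05, where 8.88% of all probes did. The 2 were Mme, whose genotype difference was 0.33 in kidneys and −0.12 in hearts (interaction 0.45, SE 0.13, adjusted p = 0.342), and Amn, with −0.28 in kidneys and 0.01 in hearts, where it was not detected (interaction −0.29, SE 0.12, adjusted p = 0.498). For the other 3 genes detected in hearts the interaction was 0.10 for Lrp2, −0.16 for Dab2 and −0.26 for Anpep, none called. For the 4 genes detected in no heart, Amn among them, the heart part of this contrast is background. Mme was detected in 2 of 3 hearts of each genotype, close to the lowest detected signal. Its heart difference of −0.12 thus lies between signals near that limit.

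Genes that act with these proteins were taken as 4 lists, of the endocytic apparatus, the brush border scaffold, other hydrolases and filtered ligands, with 76 of 91 listed genes measured. In KO/KID against KO/HT, 51 of the 76 were called higher and 11 lower, where 30.2% of all probes were called higher and 34.9% lower, and in WT/KID against WT/HT 52 were called higher and 11 lower, where 31.4% and 35.9% were. The median difference over the 76 was 0.77 in knockout and 0.81 in wildtype mice, beside 3.12 and 3.10 for the 8 receptor and brush border genes. Some listed genes, among them Pls1, Cdhr2, Cdhr5, Slc34a3, Cobl, Treh, Folh1, Ggt6 and Apoh, passed the detection filter through the kidneys alone. Their higher kidney signal was in part fixed by that filter. They enter these counts and medians and those of the single lists below.

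Most genes of the endocytic apparatus list were also higher in kidneys, but by less. The list holds machinery that serves every cell and also genes tied to megalin, such as Lrpap1 and Tcn2. Of 33 measured genes, 22 were called higher and 5 lower in KO/KID against KO/HT (median 0.61), where 30.2% and 34.9% of all probes were. In WT/KID against WT/HT 23 were called higher and 6 lower (median 0.61), where 31.4% and 35.9% of all probes were. The genes with the smallest adjusted p were Lrpap1, the chaperone of megalin (2.28 in knockout and 2.34 in wildtype mice), Tcn2, the vitamin B12 carrier that megalin binds (3.70 and 3.57), Myo6, the motor that draws endocytic vesicles off the microvillus base (3.77 and 3.89), and Lgmn, a lysosomal endopeptidase (1.92 and 1.94).

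The brush border scaffold held wider differences. Of 20 scaffold genes, 15 were called higher and 2 lower in KO/KID against KO/HT (median 2.43), where 30.2% and 34.9% of all probes were. In WT/KID against WT/HT 13 were called higher and 2 lower (median 2.50), where 31.4% and 35.9% of all probes were. Slc34a1, the sodium-phosphate cotransporter anchored in the microvillus and also one of the proximal tubule markers, differed by 8.22 in knockout and 8.13 in wildtype mice, and its anchors Pdzk1 by 7.38 and 7.32 and Slc9a3r1 by 4.44 and 4.61. Slc34a1 and Pdzk1 were detected in 2 of 3 hearts of each genotype, close to the lowest detected signal, so their differences are not exact. Cdhr5, a cadherin that links microvillus tips, did not pass detection in hearts and was at least 53.6-fold higher in KO/KID than in KO/HT and at least 56.7-fold higher in WT/KID than in WT/HT.

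The 14 measured hydrolases are surface enzymes of the brush border apart from members such as the cytosolic Acy1. In KO/KID against KO/HT 11 were called higher and 1 lower (median 1.17), where 30.2% and 34.9% of all probes were. The counts were the same in WT/KID against WT/HT (median 1.52), where 31.4% and 35.9% of all probes were. Mep1b, the beta subunit that pairs with the product of Mep1a, had a fitted difference of 3.47 between KO/KID and KO/HT, where only 1 of 3 hearts passed detection, and was at least 11.8-fold higher in WT/KID than in WT/HT, where none did. Treh, trehalase, passed detection in no heart and was at least 18.7-fold higher in KO/KID than in KO/HT and at least 20.5-fold higher in WT/KID than in WT/HT. Acy1, an aminoacylase, differed by 2.76 in knockout and 2.83 in wildtype mice, and Alpl, alkaline phosphatase, by 2.12 and 2.18. Naalad2, a carboxypeptidase named here after its value was seen, was the 1 hydrolase called lower, by −0.18 (adjusted p = 0.0275) in knockout and −0.19 (adjusted p = 0.0208) in wildtype mice. It was detected in 1 of 3 KO/HT arrays and in no array of the other groups. The wildtype difference therefore lies between undetected signals, with means of 6.46 in WT/KID and 6.65 in WT/HT.

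The filtered ligands, most of them made in the liver, were called in both directions. Of 9 measured genes, 3 were called higher and 3 lower in KO/KID against KO/HT (median −0.07), near the 30.2% and 34.9% of all probes. In WT/KID against WT/HT 5 were called higher and 2 lower (median 0.31), where 31.4% and 35.9% of all probes were. Ttr, transthyretin, differed by 3.56 in knockout and 4.30 in wildtype mice, and Hp, haptoglobin, by 1.43 and 1.44. Apoh, a plasma glycoprotein, passed detection in no heart and was at least 1.40-fold higher in KO/KID than in KO/HT and at least 1.46-fold higher in WT/KID than in WT/HT. Lpl, lipoprotein lipase, fell by 1.21 in knockout kidneys against knockout hearts and by 1.48 in wildtype kidneys against wildtype hearts, and Igf1 by 0.66 and 0.58.

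**Figure D4:**
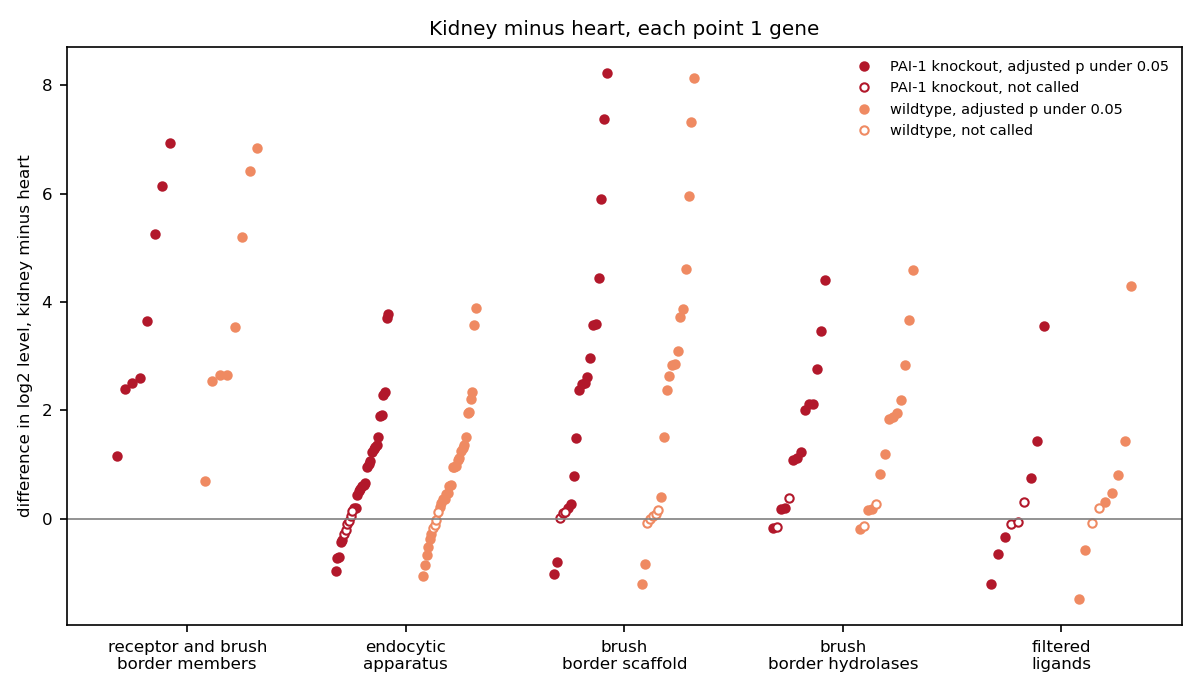
Difference in log2 level between kidneys and hearts (kidney minus heart), each point 1 gene, for the 8 receptor and brush border genes and for the 4 lists, in PAI-1 knockout and wildtype mice; filled points were called by limma (adjusted p under 0.05). The points of the endocytic apparatus lie mostly under 2, those of the scaffold reach 8.22, and the filtered ligands lie on both sides of 0.

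Between genotypes, 1 of the 76 genes was called in kidneys, where 0.546% of all probes were called in either direction and 0.243% higher. In hearts 0 were called, where 0.0657% of all probes were. The gene called in kidneys was Folh1, glutamate carboxypeptidase, a surface peptidase of the same microvilli as Mme. Its log2 levels were 7.48, 7.52 and 7.53 in KO/KID and 7.30, 7.18 and 7.30 in WT/KID, and no heart passed detection, so that it was at least 1.77-fold higher in KO/KID than in KO/HT and at least 1.46-fold higher in WT/KID than in WT/HT. Every knockout kidney lay above every wildtype kidney, with a difference of 0.25 (SE 0.05, adjusted p = 0.0431 by limma, 1.19-fold). The call depended on single arrays and settings: 0 of the 76 genes were called when any of 10 of the 12 arrays was left out, the exceptions being KO/KID replicate 3 and KO/HT replicate 3, and 0 were called under the neqc background correction, when detection was asked in 3 arrays, with only the kidneys in the fit and with the replicate number as a block. Over the 76 genes, 10 had an unadjusted p under 0.05 in kidneys, where 10.1% of all probes did, and 1 in hearts, where 8.03% did. The interaction called 0 of the 76, with 7 at an unadjusted p under 0.05, beside 8.88% of all probes.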

How the data were processed

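RNA of 12 hearts and kidneys was measured on Illumina mouse bead arrays. For 45281 probes the authors deposited a summary signal, a linear intensity that is not normalized between arrays, and for each signal a detection p-value. A second deposited table holds the authors' normalized intensity on a linear scale, made with lumi and quantile normalization. How the detection p-value was calculated and which version of lumi was used are not given in the sources used here. Precision is limited by the number of arrays.

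The deposited signals were quantile normalized over the 12 arrays and taken to log2. A probe was kept where its detection p-value was under 0.01 in any array (19780, 17073 with a single symbol, 9 with several and 2698 with none). Symbols came from the platform annotation, updated through Entrez identifiers and RefSeq (GRCm38.p6). Quantile normalization sets the same distribution on hearts and kidneys, so differences are relative to it. A gene is represented by the detected probe that was brightest on average, and the other detected probes are given beside it. All 12 arrays entered 1 limma 3.58.1 model (R 4.3.3, and the package data.table in version 1.17.8) with a mean per group, 8 residual and 3.91 prior degrees of freedom, 2-sided moderated tests and Benjamini-Hochberg adjustment over all kept probes, checked on simulated data. With n = 3 a group, the p-values rest on a spread pooled over the 4 groups and moderated across probes. An exact permutation test of 2 groups of this size could not go below 0.1.

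All 10 members are named, and of each list up to 4 called genes with the smallest adjusted p in a comparison. The members and lists were chosen with earlier results of these data known. The alternatives tried were neqc with an offset of 16, no quantile normalization, the authors' normalized values, other detection filters (a p-value under 0.05, 3 arrays, none), a block for the replicate number, a fit restricted to the compared groups, trend and robust moderation, the mean of all detected probes and leaving out each array in turn. KO/KID against KO/HT replicate 1 alone was added after the data were seen.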

Additional observations from a re-analysis of the deposited data

How the results depend on the processing

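All 8 genes were called higher in kidneys, in both genotypes, under every alternative tried and without any 1 array, and 0 of 8 were called by the interaction and, between genotypes in hearts, 0 of the 4 detected there. Of the 8, Cubn, Amn, Mep1a and Vil1 were detected in no heart and passed the main detection filter through the kidneys alone. Their calls between the organs were thus in part fixed by that filter. The size of the organ difference did depend on the processing. Over the alternatives it ran from 3.74 to 8.44 in knockout and 3.70 to 8.38 in wildtype mice for Lrp2. For Mme it ran from 0.70 to 2.33 and from 0.42 to 1.47. The folds given as at least were computed only on the quantile normalized signals and hold for these only. In knockout mice the fitted difference ran from 5.23 to 8.28 for Amn, 4.33 to 7.41 for Mep1a and 2.74 to 5.72 for Vil1. In KO/KID minus WT/KID, 0 of 8 were called under all alternatives except the one without quantile normalization, which only shifts the arrays to a common median and called 3. This setting changed the level of all probes, with a median of 0.12, and in the organ comparisons it gave 9214 probes higher and 3886 lower in knockout mice (5981 and 6901 with quantile normalization; median of all probes 0.14) and 7804 higher and 4692 lower in wildtype mice (6217 and 7106). Which scaling is nearer to the RNA amounts was not tested.

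Of the 76 pathway genes, the 1 called in KO/KID minus WT/KID became 0 with neqc, with detection in 3 arrays, with only the groups compared and with the replicate block, 12 with no quantile normalization and 3 with trend and robust moderation. Without 1 array it was 0 to 1, and 0 without any of 10 of the 12 arrays. In WT/KID minus WT/HT 61 to 64 were called under the alternatives and 58 to 64 without 1 array, and in KO/KID minus KO/HT 57 to 65 and 59 to 65. The cause of these movements was not tested.

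Small uncalled differences turned sign. In KO/KID minus WT/KID, Dab2 gave 0.15 with no quantile normalization and 0.03 with the mean of its probes, and Anpep 0.09 with no quantile normalization. In KO/HT minus WT/HT, Lrp2 gave 0.03 with neqc and 0.01 with no quantile normalization. Without 1 array, KO/KID minus WT/KID ran from −0.03 to 0.14 for Cubn, −0.05 to 0.10 for Mep1a and −0.01 to 0.09 for Vil1, KO/HT minus WT/HT from −0.17 to 0.08 for Lrp2, −0.03 to 0.01 for Cubn and −0.01 to 0.04 for Amn, and the interaction from −0.01 to 0.16 for Cubn and −0.01 to 0.14 for Mep1a. None of these was called.

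The replicate numbers did not pair the arrays, since deviations of same-numbered arrays correlated at −0.20 to 0.19 in kidneys, −0.05 to 0.16 in hearts and −0.11 to 0.21 between the organs. With the replicate block 82 probes were called in KO/KID minus WT/KID and 8 in KO/HT minus WT/HT, against 108 and 13 without it, and the counts of the 8 genes were 0, 0, 8 and 8 as without it. The number of arrays limits the precision, and signals near the level of undetected probes, as of Cubn, Amn, Mep1a and Vil1 in hearts, give only an upper limit.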
